A study of Nannochloropsis oceanica with 6 samples.

Results

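The genes described here are the proteasome genes of Nannochloropsis oceanica, a unicellular marine alga that stores oil when nitrogen runs out. They are the genes whose KEGG pathway annotation in the deposited tables has the entry Proteasome, 51 of 10481 genes. The members code for 37 different subunits or regulators by their KEGG gene symbol: 12 genes of the 20S alpha ring, 12 of the 20S beta ring, 8 ATPases of the 19S base, 4 other subunits of the base, 8 subunits of the lid and 7 other regulators. RNA was sequenced from cultures of the strain IMET1 in 2 conditions, nitrogen deprivation (ND, 3 cultures) and nitrogen repletion (NR, 3 cultures). Logarithmic-phase cells from modified f/2 medium with nitrate were washed and moved either to f/2 medium without nitrogen (ND) or to f/2 medium (NR). All cultures were kept under continuous light and sampled 72 h after the transfer. The labels name no genetic change in either group, and the comparison addresses how withdrawal of nitrogen changes the transcripts of the alga.

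The 26S proteasome is the ATP-dependent protease that degrades ubiquitin-tagged proteins in the cytosol and nucleus of eukaryotes. Its 20S core is a stack of rings in which the outer alpha rings form a gate and the inner beta rings carry the catalytic sites, those of beta1 (PSMB6), beta2 (PSMB7) and beta5 (PSMB5). The 19S regulatory particle sits on the gate: the RPT ATPases of its base unfold the substrate, RPN1, RPN10 and RPN13 bind ubiquitin or its carriers, and the lid holds the deubiquitinase RPN11. In yeast and mammals the subunit genes are known for being expressed together, and the complex is known there for returning amino acids from degraded protein to the cell.

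Library totals ran from 3972986 to 5693513 estimated counts, and a proteasome gene had between 9 and 1111 counts in a library, with a median of 214. Of the 51 genes, 40 had at least 100 counts in every library. Values per library are given below as normalised CPM, which is the count relative to the library total, after trimmed-mean scaling between libraries, and levels of different genes are compared as TPM, a relative abundance that takes out transcript length. The 100 most abundant genes of the whole table took 18.3 to 18.6% of TPM in ND libraries, against 25.2 to 25.5% in NR libraries. Scaling factors were 1.111, 1.114 and 1.123 in ND, against 0.89, 0.89 and 0.908 in NR. A change therefore differs with the scaling chosen: the median log2 fold change of all 9329 genes tested was 0.02 with trimmed-mean scaling and 0.34 with library totals alone.

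All 51 proteasome genes passed the filter on low counts and were tested. Nitrogen deprivation moved the proteasome genes in both directions and by small amounts. With edgeR's quasi-likelihood test, 32 of the 51 genes (62.7%) differed between ND and NR at an adjusted p under 0.05, against 71.2% of all genes tested. Of these, 11 rose (21.6%, against 35.7% of all genes) and 21 fell (41.2%, against 35.5%), and 19 did not pass the test. The median log2 fold change of the 51 was -0.09. With library totals alone the split was 22 higher and 12 lower (54.4% and 23.0% of all genes), with a median of 0.23. The median of the proteasome genes lay 0.12 below that of all genes on either scaling, while the sign of a small change depends on the scaling.

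Large changes were few. A change of at least 2 times was called in 3 of the 51 genes, 2 higher and 1 lower, against 21.9% of all genes tested (9.39% higher and 12.5% lower). The log2 fold change lay within 1 of 0 in 48 genes and within 0.5 in 34. The normalised CPM of ND and NR libraries did not overlap in 32 of the 51, 11 with ND above NR and 21 with ND below NR, against 73.5% of all genes (37.2% above and 36.2% below). The same call in the same direction was made under 4 scalings, with DESeq2 and with limma on 2 transforms of FPKM for 9 genes that rose and 9 that fell, against 30.1% and 21.0% of the 9312 genes with all these tests. In RNA from a whole culture, fewer cells with a transcript and less of it per cell cannot be told apart. The edgeR p-values weigh the difference between ND and NR against the spread between the 3 cultures of a condition. That spread is estimated with information from all genes.

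**Figure D1:**
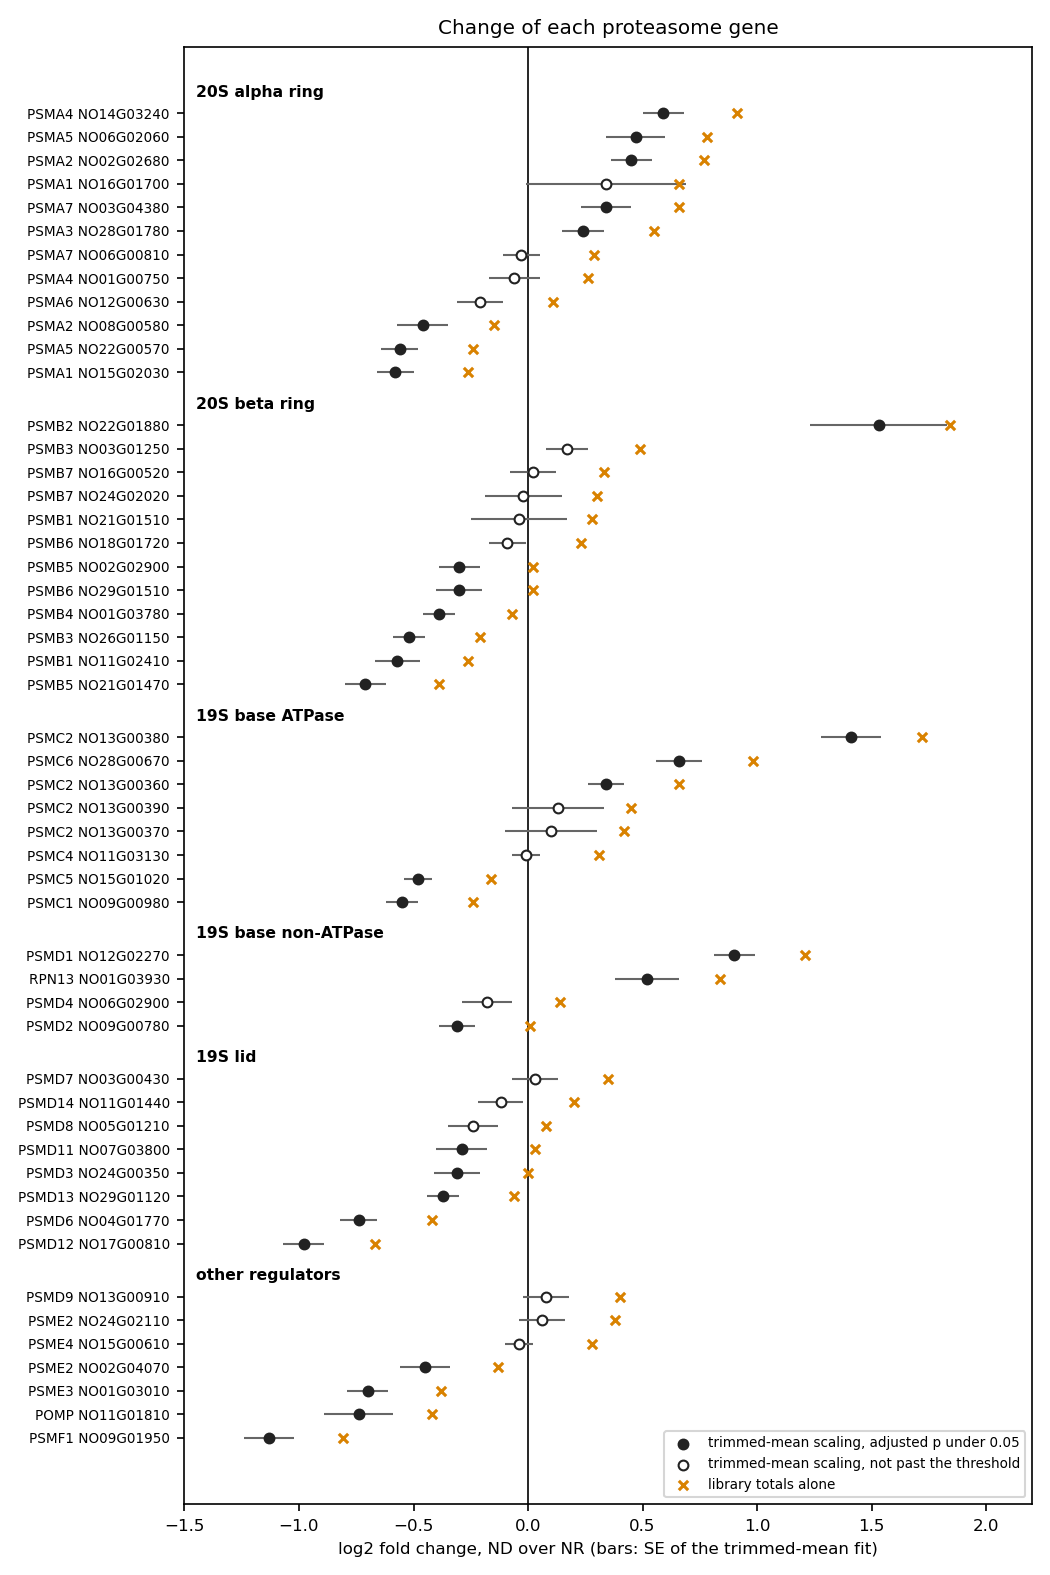
Log2 fold change, ND over NR, of each of the 51 proteasome genes, grouped by position in the complex. Circles are trimmed-mean estimates with bars of 1 SE, filled where the edgeR adjusted p is under 0.05, and crosses are the estimates with library totals alone, which lie to the right of the circle of the same gene; PSMB2 and 1 RPT1 model (PSMC2) stand apart on the right and PSMF1 on the left.

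The plot of changes by gene orders the members within each group of subunits. No group moved as a unit: the alpha ring and the base held genes that rose and genes that fell, while with trimmed-mean scaling the lid and the other regulators held genes that fell and genes that did not pass the test. The counts are 5 higher and 3 lower of 12 for the alpha ring, 1 higher and 6 lower of 12 for the beta ring, 3 higher and 2 lower of 8 for the base ATPases, 2 higher and 1 lower of 4 for the rest of the base, 0 higher and 5 lower of 8 for the lid, and 0 higher and 4 lower of 7 for the other regulators. The shares called ran from 57.1% for the other regulators to 75.0% for the rest of the base, against 71.2% of all genes tested (35.7% higher and 35.5% lower). The median log2 fold changes in the same order were 0.11, -0.20, 0.11, 0.17, -0.30 and -0.45, beside 0.02 for all genes tested. With library totals alone the counts were 7 and 2, 4 and 3, 5 and 2, 2 and 0, 1 and 2, and 3 and 3, against 54.4% higher and 23.0% lower of all genes. The medians were then 0.42, 0.12, 0.43, 0.49, 0.02 and -0.13, beside 0.34 for all genes, so those of the beta ring and the lid turned in sign and, like those of the other regulators, stayed under the all-gene median. A difference between the groups of subunits was not tested.

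The alpha ring has 7 kinds of subunit, each alpha subunit taking 1 place in the ring, and 5 of the 7 had 2 genes in the annotation. PSMA4, the alpha3 subunit whose tail is known in yeast to close the gate, had a gene that rose and a gene that did not pass the test with trimmed-mean scaling. Its gene NO14G03240 had 91.01, 102 and 92.7 normalised CPM in ND cultures, against 53.4, 64.1 and 72.96 in NR cultures, a log2 fold change of 0.59 ± 0.09 (edgeR adjusted p = 1.02e-05). The other PSMA4 gene, NO01G00750, had 46.8, 43.5 and 39.9 normalised CPM in ND cultures, against 51.5, 38.5 and 44.9 in NR cultures. All ND libraries lay above all NR libraries for the first gene, and the libraries of the second overlapped. The value of the second gene was -0.06 ± 0.11, but it was called higher with library totals alone (0.26) and on the FPKM scale (0.32). NO14G03240 carries the orthologous-group labels of both PSMA7 and PSMA4, whereas NO01G00750 carries that of PSMA4 alone.

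PSMA5 (alpha5) and PSMA2 (alpha2) each had a gene that rose and a gene that fell. For PSMA5, Prosalpha5 (NO06G02060) had 33.5, 31.6 and 41.8 normalised CPM in ND cultures, against 27.3, 22.01 and 28.3 in NR cultures, a change of 0.47 ± 0.13 (edgeR adjusted p = 0.00388). PAE1 (NO22G00570) had 50.7, 45.3 and 49.9 normalised CPM in ND cultures, against 67.5, 72.6 and 75.2 in NR cultures, a change of -0.56 ± 0.08 (edgeR adjusted p = 5.82e-06). The libraries of the 2 conditions did not overlap for either gene, and both calls held under every scaling. For PSMA2, psmA (NO02G02680) had 69.4, 62.8 and 56.7 normalised CPM in ND cultures, against 44.8, 45.4 and 47.4 in NR cultures, a change of 0.45 ± 0.09 (edgeR adjusted p = 0.000222). PAB1 (NO08G00580) had 40.1, 38.8 and 34.1 normalised CPM in ND cultures, against 46.5, 46.8 and 62.1 in NR cultures, a change of -0.46 ± 0.11 (edgeR adjusted p = 0.00117). ND and NR libraries did not overlap for either PSMA2 gene, but the fall of PAB1 did not pass the test with library totals alone (-0.15) or on the FPKM scale (-0.11). The counts of both PSMA2 genes were not whole numbers, so reads were shared between gene models and their split is uncertain. Both PSMA2 genes carry the orthologous-group label of another alpha subunit, PSMA7, in the deposited annotation.

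PSMA1 (alpha6) and PSMA7 (alpha4) also had 2 genes each. The main PSMA1 gene, NO15G02030, had 60.6, 55.2 and 62.8 normalised CPM in ND cultures, against 93.1, 82.2 and 91.5 in NR cultures. It fell by 0.58 on the log2 scale (SE 0.08, edgeR adjusted p = 2.11e-06), with no overlap between the groups. The second PSMA1 gene, NO16G01700, was the least counted member, with 9 to 32 counts in a library and 4.93, 2.53 and 5.01 normalised CPM in ND cultures, against 3.20, 4.13 and 2.50 in NR cultures. Its libraries overlapped, its change of 0.34 ± 0.35 did not pass the test, and its orthologous-group label is that of PSMA7. The PSMA7 gene pas-4 (NO03G04380) had 35.7, 38.1 and 35.2 normalised CPM in ND cultures, against 28.8, 31.9 and 25.2 in NR cultures. It rose by 0.34 ± 0.11 (edgeR adjusted p = 0.0109) with no overlap, a call that was lost with DESeq2 (adjusted p = 0.0696) and without NR culture 3 (0.26, edgeR adjusted p = 0.0606). The other PSMA7 gene, psmA7 (NO06G00810), had the smallest change of the ring with trimmed-mean scaling. It had 72.3, 77.4 and 71.4 normalised CPM in ND cultures, against 82.00, 73.2 and 69.4 in NR cultures, and its groups overlapped. Its value of -0.03 ± 0.08 did not pass the test, but the gene was called higher with library totals alone (0.29) and on the FPKM scale (0.33).

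The remaining alpha subunits had 1 gene each. PSMA3 (alpha7) is annotated in NO28G01780 together with SLD5, a subunit of the GINS replication complex, so its reads may come from either. This gene had 65.5, 67.3 and 71.7 normalised CPM in ND cultures, against 50.2, 62.2 and 62.1 in NR cultures. It rose by 0.24 ± 0.09 (edgeR adjusted p = 0.0241) with no overlap between the groups. The call was lost with DESeq2 and without ND culture 2, ND culture 3 or NR culture 1, and the value was 0.14 without NR culture 1. PSMA6 (alpha1, NO12G00630) had 32.9, 33.9 and 36.8 normalised CPM in ND cultures, against 41.6, 42.1 and 36.1 in NR cultures and did not pass the test, at -0.21 ± 0.10 with trimmed-mean scaling and 0.11 with library totals alone, except without NR culture 3 (-0.27, edgeR adjusted p = 0.0349).

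The beta ring has 7 kinds of subunit with 12 genes, and with trimmed-mean scaling 6 of its 7 called genes fell. PSMB2 (beta4, gene pcb-4, NO22G01880), which carries no catalytic site, was the exception. It had 5.96, 7.58 and 8.61 normalised CPM in ND cultures, against 2.22, 2.48 and 3.05 in NR cultures, which corresponds to 9 to 55 counts in a library. All ND libraries lay above all NR libraries. The log2 fold change was 1.53 ± 0.30 (edgeR adjusted p = 0.000126), 2.88-fold, with the widest SE among the genes past 2 times. This change and that of the RPT1 model NO13G00380 (1.41 ± 0.13) lay within their SE of each other, and on the FPKM scale that of the RPT1 model was the larger (1.68 for PSMB2 and 1.84 for the RPT1 model). The authors' deposited table gives 1.51 for this gene.

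PSMB5 (beta5), which carries the chymotrypsin-like site, had 2 genes and both fell. The gene psmB5 (NO21G01470) had 39.9, 37.5 and 35.2 normalised CPM in ND cultures, against 62.5, 64.6 and 56.3 in NR cultures, a change of -0.71 ± 0.09 (edgeR adjusted p = 7.83e-07). The second gene, NO02G02900, annotated as a fragment, had 38.01, 37.5 and 40.1 normalised CPM in ND cultures, against 49.2, 45.1 and 48.3 in NR cultures, a change of -0.30 ± 0.09 (edgeR adjusted p = 0.00657). Neither gene overlapped between conditions. The first call held under every scaling, whereas the second was lost with upper-quartile factors and its sign turned with library totals alone (0.02).

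The other catalytic subunits changed little. PSMB6 (beta1, caspase-like site) had a gene, NO29G01510, with 39.7, 34.5 and 40.5 normalised CPM in ND cultures, against 49.99, 46.8 and 44.4 in NR cultures. It fell by 0.30 (SE 0.10, edgeR adjusted p = 0.0106) with no overlap, but the sign turned with library totals alone (0.02) and the call was lost with upper-quartile factors and without ND culture 2 or NR culture 1. The other PSMB6 gene, NO18G01720, had 88.96, 90.8 and 89.99 normalised CPM in ND cultures, against 87.7, 111 and 89.9 in NR cultures, and its groups overlapped (-0.09 ± 0.08, not past the test), though it was called higher with library totals alone (0.23). PSMB7 (beta2, trypsin-like site) had 40.3, 46.9 and 40.5 normalised CPM in ND cultures, against 44.1, 41.5 and 40.5 in NR cultures for NO16G00520. Its second gene NO24G02020 had 16.02, 12.99 and 12.5 normalised CPM in ND cultures, against 12.3, 15.1 and 14.4 in NR cultures. The groups overlapped for both PSMB7 genes, which had the smallest changes of the ring with trimmed-mean scaling, at 0.02 ± 0.10 and -0.02 ± 0.17. With library totals alone the values were 0.33 and 0.30, and NO16G00520 was called higher there and on the FPKM scale (0.34).

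The structural beta subunits PSMB1 (beta6), PSMB3 (beta3) and PSMB4 (beta7) each had a gene that fell. PBF1 (PSMB1, NO11G02410) had 43.1, 37.9 and 47.1 normalised CPM in ND cultures, against 68.7, 55.6 and 66.9 in NR cultures, a change of -0.57 ± 0.10. The gene psmB3 (PSMB3, NO26G01150) had 95.7, 98.9 and 87.2 normalised CPM in ND cultures, against 148, 127 and 129 in NR cultures, a change of -0.52 ± 0.07. PBG1 (PSMB4, NO01G03780) had 95.9, 90.6 and 90.5 normalised CPM in ND cultures, against 129, 116 and 117 in NR cultures, a change of -0.39 ± 0.07. None of the 3 overlapped between conditions, and their edgeR adjusted p ran from 2.42e-06 for PSMB3 to 3.9e-05 for PSMB1. On the FPKM scale these 3 falls were -0.23, -0.20 and -0.05 and no longer passed the test, and that of PSMB4 also did not pass with library totals alone (-0.07). The second PSMB1 gene, psmB1 (NO21G01510), had 9.66, 11.9 and 10.96 normalised CPM in ND cultures, against 10.8, 14.3 and 8.32 in NR cultures and the second PSMB3 gene, PBC1 (NO03G01250), had 48.5, 52.3 and 55.6 normalised CPM in ND cultures, against 43.3, 45.7 and 50.8 in NR cultures. Both overlapped and neither passed the test, at -0.04 ± 0.21 and 0.17 ± 0.09, with trimmed-mean scaling. PBC1 was called higher with upper-quartile factors (0.28), with library totals alone (0.49), on the FPKM scale (0.43) and without NR culture 3 (0.23, edgeR adjusted p = 0.0451), the last of which made 2 beta genes higher in place of 1. The direction of psmB1 turned with library totals alone (0.28).

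**Figure D2:**
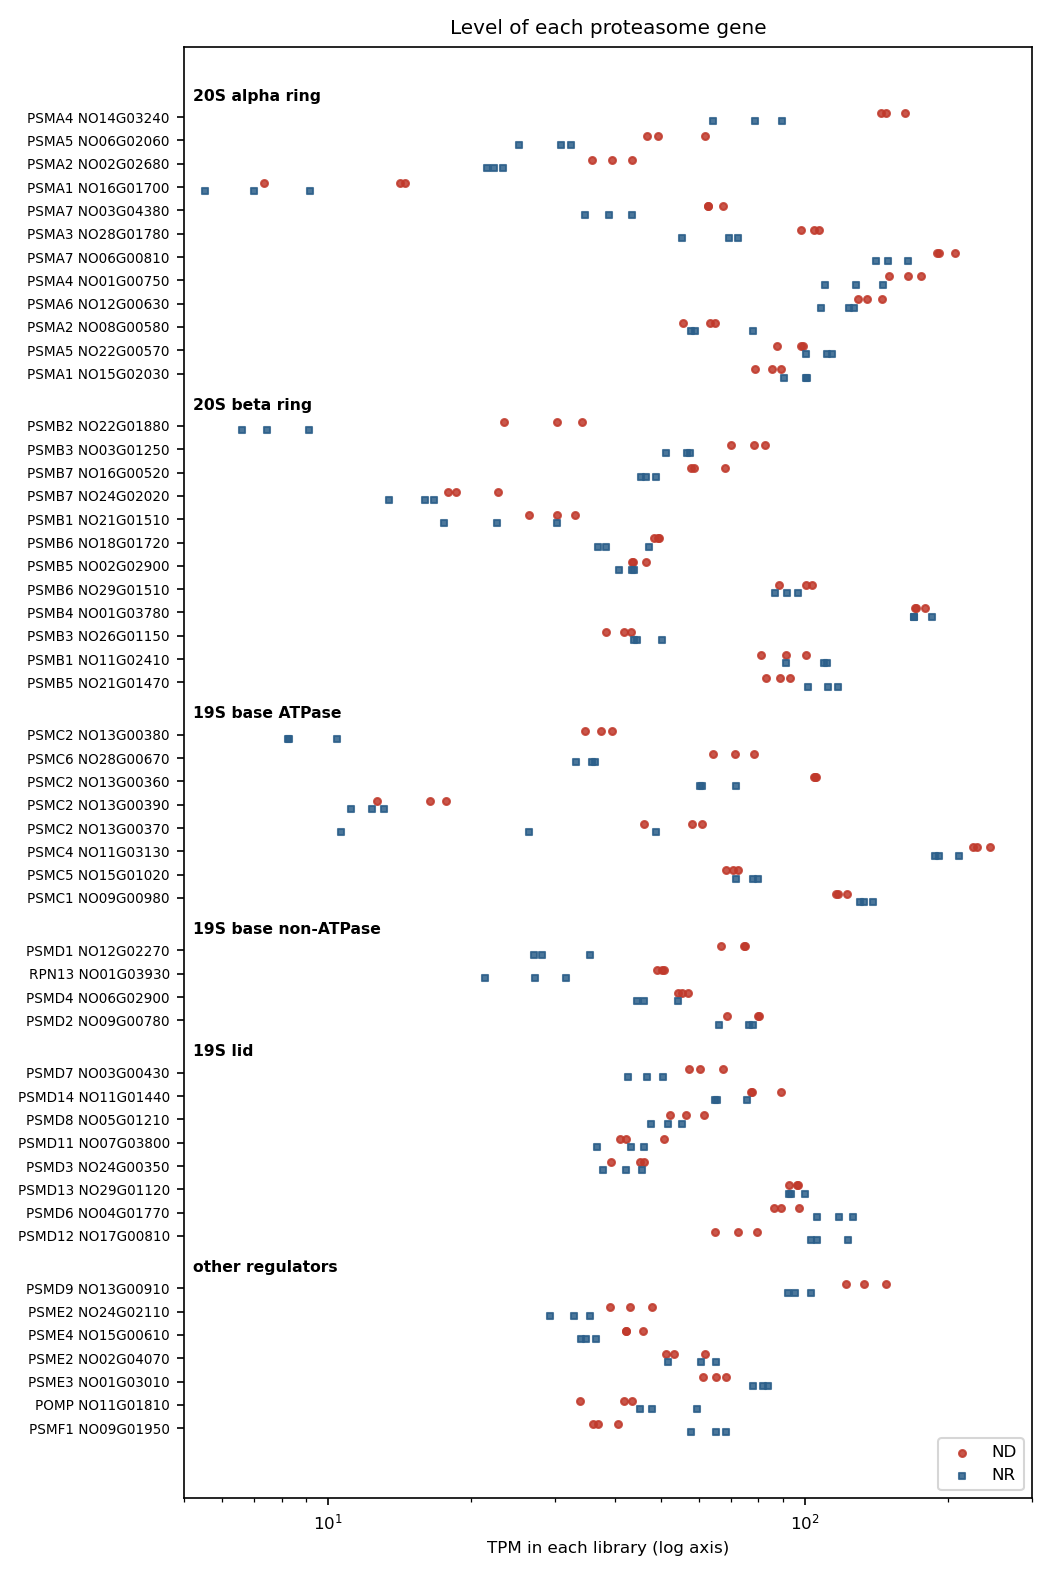
TPM of each of the 51 proteasome genes in each library on a log axis, in the order of the plot of changes; circles are ND cultures and squares NR cultures. Mean levels spanned 12.02 to 233.9 TPM in ND and 7.23 to 196.8 TPM in NR, with PSMC4 highest in both conditions and the second PSMA1 gene NO16G01700 lowest in both.

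In the base, the ATPases moved in opposite directions. RPT4 (PSMC6) and RPT1 (PSMC2) rose, RPT2 (PSMC1) and RPT6 (PSMC5) fell, and RPT3 (PSMC4) did not pass the test with trimmed-mean scaling, although the 6 ATPases of this ring are present once each in the known complex of yeast and mammals. No gene of RPT5 (PSMC3) is among the members. RPT4 (RPT4A, NO28G00670) had 47.7, 52.7 and 57.8 normalised CPM in ND cultures, against 32.01, 34.1 and 34.7 in NR cultures, a log2 fold change of 0.66 ± 0.10 (edgeR adjusted p = 7.33e-06). RPT2 (RPT2B, NO09G00980), whose tail opens the gate in yeast, had 67.8, 70.4 and 66.8 normalised CPM in ND cultures, against 100.5, 103 and 97.4 in NR cultures, a change of -0.55 ± 0.07 (edgeR adjusted p = 6.52e-07). The groups did not overlap for either gene and both calls held under every scaling. RPT6 (NO15G01020) had 179, 168 and 174 normalised CPM in ND cultures, against 256, 245 and 226 in NR cultures, a change of -0.48 ± 0.06 (edgeR adjusted p = 3.19e-07). Its groups did not overlap either, but its fall did not pass the test on the FPKM scale (-0.15). RPT3 (NO11G03130) had 138, 138 and 142 normalised CPM in ND cultures, against 149.7, 139 and 130.1 in NR cultures, with overlap (-0.01 ± 0.06), but was called higher with library totals alone (0.31) and on the FPKM scale (0.21). The mean length of its transcripts, weighted by abundance, was 1382 ± 23.8 bases in ND, against 1289 ± 26.4 bases in NR (SD, n = 3 each), with no overlap.

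RPT1 was annotated in 4 gene models with consecutive IDs, of which 3 shared reads. Whether they are parts of 1 gene or separate copies was not checked. The model NO13G00360, with whole counts, had 89.98, 88.4 and 88.9 normalised CPM in ND cultures, against 66.7, 78.1 and 66.3 in NR cultures, a change of 0.34 ± 0.08 (edgeR adjusted p = 0.000608). NO13G00380 had 47.05, 43.5 and 39.1 normalised CPM in ND cultures, against 13.8, 19.3 and 15.8 in NR cultures, a change of 1.41 ± 0.13 (edgeR adjusted p = 8.78e-09), 2.65-fold. All ND libraries lay above all NR libraries for both models. The other models overlapped between conditions and did not pass the test. NO13G00370 had 11.5, 12.99 and 16.3 normalised CPM in ND cultures, against 9.36, 14.6 and 14.7 in NR cultures (0.10 ± 0.20). NO13G00390 had 15.6, 12.3 and 12.5 normalised CPM in ND cultures, against 15.5, 11.8 and 9.15 in NR cultures (0.13 ± 0.20), and was called higher with library totals alone (0.45).

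Within the RPT1 models, the share of counts assigned to NO13G00380 was 28.6, 27.7 and 25.0% in ND cultures, against 13.1, 15.5 and 14.9% in NR cultures. Its mean transcript length was 2439 ± 46.9 bases in ND and 2895 ± 206.8 bases in NR (SD, n = 3 each), without overlap. Summed over the 4 models, RPT1 had 799, 871 and 1002 estimated counts in ND cultures, against 429, 450 and 382 in NR cultures. The sum rose by 0.51 ± 0.07 on the log2 scale (edgeR adjusted p = 1.07e-06), 1.43-fold. The authors' deposited table gives 1.40 for NO13G00380 alone.

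Among the other base subunits, the scaffold RPN2 and the ubiquitin receptor RPN13 rose while the scaffold RPN1 fell. RPN2 (PSMD1, NO12G02270) had 109, 121 and 122 normalised CPM in ND cultures, against 59.6, 73.7 and 56.3 in NR cultures, a change of 0.90 ± 0.09 (edgeR adjusted p = 1.38e-08), 1.86-fold. RPN13 (adrm1-a, NO01G03930), whose orthologous-group label is that of a cell membrane glycoprotein, had 29.2, 28.7 and 28.02 normalised CPM in ND cultures, against 20.4, 23.4 and 15.8 in NR cultures, a change of 0.52 ± 0.14 (edgeR adjusted p = 0.00205). The groups did not overlap for either gene and both calls held under every scaling. RPN1 (PSMD2, NO09G00780), which binds ubiquitin carriers, had 124, 106 and 124 normalised CPM in ND cultures, against 154, 154 and 131 in NR cultures. It fell by 0.31 (SE 0.08, edgeR adjusted p = 0.00112) with no overlap, and the sign turned with library totals alone (0.01). RPN10 (PSMD4, NO06G02900), the other ubiquitin receptor of the base, had the smallest change with trimmed-mean scaling, with 33.3, 33.2 and 34.4 normalised CPM in ND cultures, against 42.8, 37.1 and 34.1 in NR cultures. Its groups overlapped and it did not pass the test, at -0.18 ± 0.11 with trimmed-mean scaling and 0.14 with library totals alone.

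In the lid 5 of 8 genes fell and 0 rose with trimmed-mean scaling, against 35.5% lower and 35.7% higher of all genes tested. The calls in the lid were 2 lower and 1 higher, RPN8, on library totals alone. RPN5 (PSMD12, NO17G00810), a scaffold subunit of the lid, changed most. It had 37.4, 41.5 and 45.4 normalised CPM in ND cultures, against 77.6, 78.7 and 91.3 in NR cultures, a change of -0.98 ± 0.09 (edgeR adjusted p = 8e-09), 1.98-fold lower in ND. RPN7 (PSMD6, NO04G01770) had 76.8, 70.03 and 67.6 normalised CPM in ND cultures, against 122, 128 and 107 in NR cultures, a change of -0.74 ± 0.08 (edgeR adjusted p = 4.66e-08). The groups did not overlap for either gene and both calls held under every scaling. The authors' deposited table gives -1.001 for RPN5.

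The other lid genes that fell did so by less. RPN9 (PSMD13, NO29G01120) had 63.7, 61.00 and 63.7 normalised CPM in ND cultures, against 79.8, 85.00 and 79.6 in NR cultures, a change of -0.37 ± 0.07 (edgeR adjusted p = 0.000162). RPN3 (PSMD3, NO24G00350) had 43.3, 42.2 and 36.6 normalised CPM in ND cultures, against 51.5, 54.5 and 45.2 in NR cultures, a change of -0.31 ± 0.10 (edgeR adjusted p = 0.00872). RPN6 (PSMD11, NO07G03800) had 40.7, 48.5 and 39.3 normalised CPM in ND cultures, against 54.2, 56.9 and 45.2 in NR cultures, a change of -0.29 ± 0.11 (edgeR adjusted p = 0.0211). Libraries did not overlap for RPN9 and RPN3 and overlapped for RPN6. With library totals alone the values of the 3 were -0.06, 0.00 and 0.03, none past the test, and the signs of RPN3 and RPN6 turned. The call of RPN6 was also lost with DESeq2 (adjusted p = 0.0631) and without ND culture 1, ND culture 3, NR culture 1 or NR culture 2, and that of RPN3 without ND culture 3 or NR culture 2. The count of lid genes that fell was 3 in place of 5 with upper-quartile factors and without NR culture 2, since RPN3 and RPN6 lost their calls.

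The lid enzyme did not pass the test on either scaling. RPN11 (PSMD14, NO11G01440), the metalloprotease that removes ubiquitin chains from substrates, had 40.5, 40.1 and 46.01 normalised CPM in ND cultures, against 43.8, 43.7 and 50.5 in NR cultures, with overlap, at -0.12 ± 0.10 with trimmed-mean scaling and 0.20 with library totals alone. RPN8 (PSMD7, NO03G00430), its partner in the lid, had the smallest change of the group with trimmed-mean scaling. It had 48.7, 41.1 and 43.4 normalised CPM in ND cultures, against 40.1, 43.2 and 46.9 in NR cultures, with overlap (0.03 ± 0.10), but was called higher with library totals alone (0.35) and on the FPKM scale (0.35). RPN12 (PSMD8, NO05G01210) had 28.4, 25.99 and 30.7 normalised CPM in ND cultures, against 31.3, 35.8 and 33.6 in NR cultures. All its ND libraries lay below all its NR libraries, yet its change of -0.24 ± 0.11 did not pass (edgeR adjusted p = 0.0704), except without ND culture 3 (-0.31, edgeR adjusted p = 0.0437), and it was 0.08 with library totals alone.

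Among the regulators, the genes of PI31, the maturation factor and an activator fell, and PA200, the base chaperone and another activator gene did not pass the test with trimmed-mean scaling but were called higher with library totals alone and on the FPKM scale. PI31 (PSMF1, NO09G01950), which binds the core and is known from mammals as an inhibitor of it in vitro, had 23.8, 24.2 and 26.6 normalised CPM in ND cultures, against 59.1, 55.3 and 49.1 in NR cultures. All ND libraries lay below all NR libraries. The change of -1.13 ± 0.11 (edgeR adjusted p = 7.58e-09) was 2.19-fold lower in ND, the only fall past 2 times among the 51 genes, and the authors' deposited table gives -1.14. POMP (UMP1, NO11G01810), the chaperone that matures new core particles, had 16.4, 12.6 and 15.7 normalised CPM in ND cultures, against 22.4, 23.4 and 29.1 in NR cultures. It fell by 0.74 (SE 0.15, edgeR adjusted p = 0.000219), with no overlap between the groups.

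PA28 is a ring-shaped activator that opens the core without ATP, and 3 genes are annotated as its subunits. The gene NO01G03010, annotated as PSME1 by Swiss-Prot and as PSME3 by KEGG, had 30.8, 34.1 and 32.6 normalised CPM in ND cultures, against 53.7, 50.3 and 54.4 in NR cultures, a change of -0.70 ± 0.09 (edgeR adjusted p = 1.44e-06). NO02G04070, PSME2 by KEGG and PSME3 by Swiss-Prot, had 40.5, 34.8 and 33.2 normalised CPM in ND cultures, against 44.1, 50.6 and 53.3 in NR cultures, a change of -0.45 ± 0.11 (edgeR adjusted p = 0.00076). Neither of these 2 genes overlapped, though the second fall did not pass with library totals alone (-0.13). NO24G02110, with the same annotation as the second, had 40.3, 43.5 and 48.2 normalised CPM in ND cultures, against 43.8, 45.1 and 37.7 in NR cultures, with overlap (0.06 ± 0.10, against 0.38 with library totals alone and 0.36 on the FPKM scale, both past the test). PA200 (PSME4, NO15G00610), an activator of another family, had 156, 164 and 152 normalised CPM in ND cultures, against 162, 157 and 167 in NR cultures. Its groups overlapped and its change of -0.04 ± 0.06 was the smallest of the regulators with trimmed-mean scaling. It was called higher with library totals alone (0.28) and on the FPKM scale (0.26). PSMD9 (NO13G00910), known in yeast and mammals as a chaperone of base assembly, had 41.3, 49.5 and 44.6 normalised CPM in ND cultures, against 45.8, 40.4 and 41.9 in NR cultures, with overlap (0.08 ± 0.10), and was called higher with library totals alone (0.40) and on the FPKM scale (0.42).

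Levels per length showed how unequal the transcripts of 1 complex were. Over single genes the median was 64.2 TPM in ND and 55.1 TPM in NR, against 52.2 and 39.7 TPM for all genes tested. With the genes of each subunit summed, PSMA4 had the highest mean of the alpha subunits in both conditions, at 315 ± 15.0 TPM in ND and 206 ± 14.7 TPM in NR (SD, n = 3 each, here and below). In NR it did not differ from PSMA7, at 191 ± 14.2 TPM, beyond their spread. The lowest means were those of PSMA1, PSMA2 and PSMA3 in ND, at 96.5 ± 9.39, 101 ± 8.60 and 103 ± 4.64 TPM, which did not differ beyond their spread, and that of PSMA3 in NR (65.7 ± 9.13 TPM). The highest mean was 3.27 times the lowest in ND and 3.13 times in NR. In the beta ring the range ran from PSMB2 at 29.2 ± 5.38 TPM to PSMB4 at 174 ± 4.68 TPM in ND, a ratio of 5.94, and from PSMB2 at 7.73 ± 1.30 TPM to PSMB4 at 175 ± 8.75 TPM in NR, a ratio of 22.6. The PSMB2 level leaves out NO11G02560 and NO11G02570, models outside the entry that are also named proteasome subunit beta type-2. They stood at 71.8 and 125 TPM in ND and at 31.99 and 147 TPM in NR. Both ratios therefore hold for the genes of the entry only. Ranks in TPM also depend on model length. NO26G01150 (PSMB3) is 4519.5 bases long and shared reads, against 1262 bases for PSMB4. In normalised CPM this gene alone had means of 93.9 in ND and 135 in NR, against 92.3 and 121 for PSMB4. The PSMA2 gene psmA is 3246 bases long, against 741 bases for PSMA6, with means of 63.0 and 34.5 normalised CPM in ND. The high rank of PSMB4 and the low rank of PSMA2 therefore hold for TPM only.

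Levels in the lid lay closer together. They ran from PSMD3 at 43.5 ± 3.69 TPM to PSMD13 at 95.4 ± 2.19 TPM in ND, a ratio of 2.19, and from PSMD3 at 41.9 ± 3.87 TPM to PSMD6 at 117 ± 10.1 TPM in NR, a ratio of 2.79. PSMD13 in ND was within the spread of its neighbour PSMD6, at 90.9 ± 5.67 TPM, and PSMD6 in NR within that of PSMD12, at 111 ± 10.7 TPM. PSMD3 did not differ from PSMD11 beyond their spread in ND (44.6 ± 5.25 TPM) or NR (41.99 ± 4.86 TPM). Among the base ATPases RPT3 was highest in both conditions, at 234 ± 9.99 TPM in ND and 197 ± 12.6 TPM in NR. RPT1, with its 4 models summed, came next in ND at 213 ± 5.41 TPM, against 114 ± 26.2 TPM in NR, where it did not differ from RPT2 (134 ± 4.07 TPM) beyond their spread. RPT6 and RPT4 were lowest of the ATPases in TPM in ND, at 70.5 ± 2.10 and 71.3 ± 7.10 TPM, and did not differ beyond their spread. In NR, RPT6 stood at 76.5 ± 4.22 TPM and RPT4 at 35.1 ± 1.76 TPM. The RPT6 gene model is 4876 bases long, against 1652 bases for RPT4. Its counts were not whole, so its reads were shared with other models. In normalised CPM, RPT6 was the highest ATPase gene, with means of 174 in ND and 242 in NR. Its low rank in TPM therefore depends on the length of its model.

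Summed over all 51 genes, proteasome transcripts made up 0.385, 0.388 and 0.394% of TPM in ND cultures, against 0.340, 0.344 and 0.336% in NR cultures. The ND sums were higher in every library on this scale. On normalised CPM the order was the other way, with sums of 2786, 2766 and 2788 in ND cultures and 3147, 3151 and 3048 in NR cultures. The direction of the sum therefore depends on the scale. Ratios between parts of the complex within a library do not depend on the scaling between libraries.

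**Figure D3:**
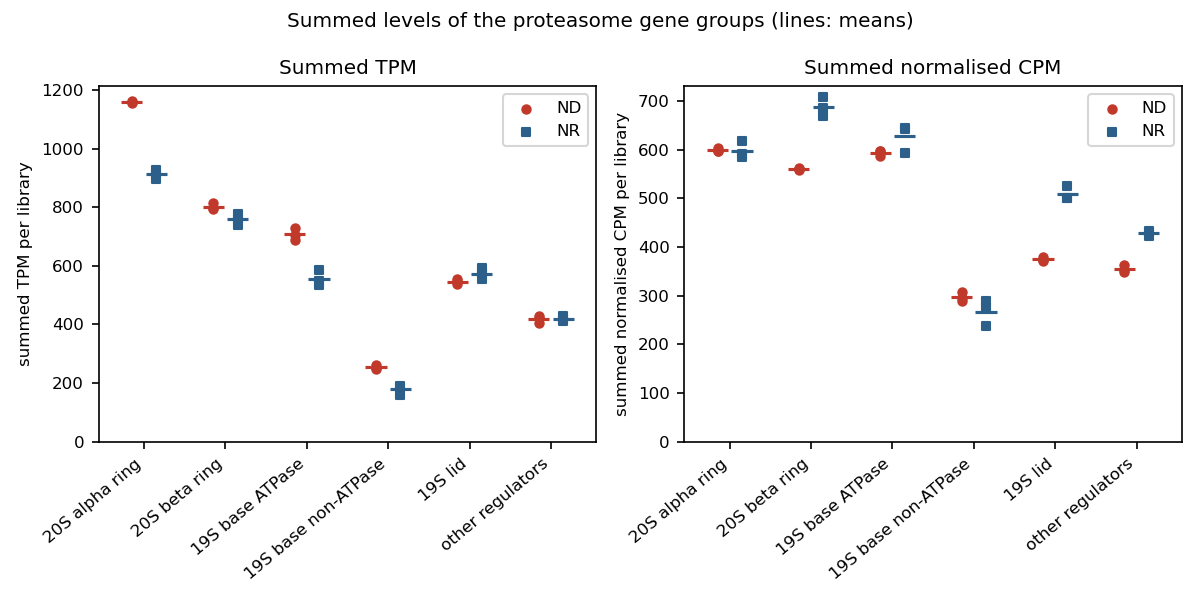
Summed TPM (left) and summed normalised CPM (right) of the 6 groups of proteasome genes in each library; circles are ND cultures, squares NR cultures and lines means. On TPM the alpha ring sums were 1160 ± 3.38 in ND and 912 ± 16.1 in NR, while the lid sums were 546 ± 8.16 in ND and 574 ± 18.5 in NR (SD, n = 3 each); on normalised CPM the lid sums were 374 ± 4.69 in ND and 508 ± 14.8 in NR.

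The plot of summed levels shows the parts of the complex on both scales. The ratio of the alpha ring to the lid, on summed TPM, was 2.11, 2.17 and 2.09 in ND cultures, against 1.64, 1.51 and 1.61 in NR cultures. The ratio of the base ATPases to the lid was 1.26, 1.31 and 1.32 in ND cultures, against 0.991, 0.993 and 0.928 in NR cultures. The ratio of the alpha ring to the beta ring was 1.45, 1.47 and 1.42 in ND cultures, against 1.17, 1.18 and 1.25 in NR cultures. In all 3 the ND libraries lay above the NR libraries. Under nitrogen deprivation the summed TPM of the alpha ring was higher relative to the lid and beta ring sums. That of the ATPases was higher relative to the lid sum. The subunits within a sum did not move alike. Among others, mean TPM was higher in ND for RPT1 (213, against 114 in NR), PSMA4 (315, against 206) and PSMA7 (260, against 191). It was lower for RPT2 (119, against 134), RPT6 (70.5, against 76.5) and PSMA1 (96.5, against 105). These ratios therefore describe sums and not a shift of every subunit. The ratio of the beta ring to the lid was closer between conditions, at 1.46, 1.48 and 1.47 in ND cultures, against 1.40, 1.28 and 1.29 in NR cultures, though its libraries did not overlap either. With 3 cultures a condition the smallest two-sided p that an exact permutation test can give is 0.1, and these ratios were not tested further.

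Pairs of genes for 1 subunit allow a comparison within each library that no scaling touches. Of 11 subunits with 2 genes, 7 had ratios of the 2 genes that did not overlap between ND and NR. As single genes, 73.5% of all genes tested did not overlap. The share among other pairs of genes was not computed, so the count is not read as a trait of proteasome pairs. In 6 of the 7 pairs, PSMA2, PSMA4, PSMA5, PSMA7, PSMB5 and PSME2, the gene with the higher mean TPM lost ground to the other under nitrogen deprivation. In PSMB3 it gained. Over all 11 pairs, 9 showed a lower ratio of the gene with the higher mean TPM in ND. TPM depends on the length of the gene model. By normalised CPM that gene was the lower one in both conditions for PSMA4 (mean log2 ratio -1.13 in ND and -0.50 in NR), PSMB3 (-0.85 and -1.53) and PSMB6 (-1.24 and -1.02). Ranked by normalised CPM, the direction turns for these pairs. For PSMA2, PSMB5 and PSME2 the rank by normalised CPM differed between ND and NR. Each of the 7 has a two-sided exact permutation p of 0.1, the smallest possible, which is 0.157 after Benjamini-Hochberg adjustment over the 11 pairs.

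**Figure D4:**
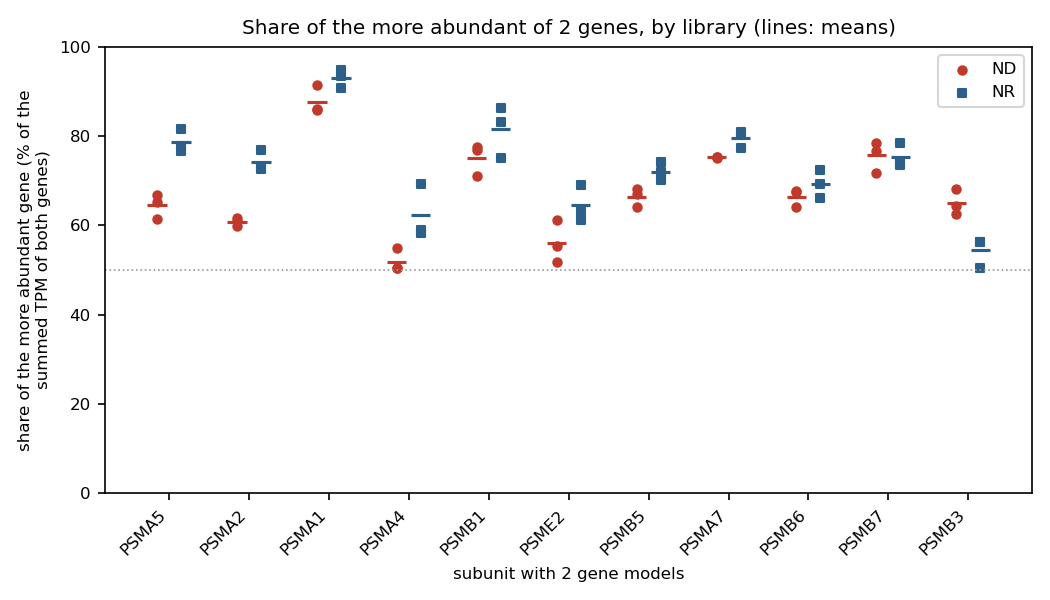
Share of the gene with the higher mean TPM in the summed TPM of the 2 genes of a subunit, for 11 subunits, in each ND library (circles) and NR library (squares), with lines at the means. The share was lower in every ND library than in every NR library for PSMA5, PSMA2, PSMA4, PSMB5 and PSMA7, and higher for PSMB3.

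The plot of shares within pairs shows how far these shifts went. For PSMA5 the gene PAE1 supplied 66.8, 65.2 and 61.4% of the pair's TPM in ND cultures, against 76.6, 81.5 and 77.9% in NR cultures. For PSMA2 the gene PAB1 supplied 59.9, 61.6 and 60.9% in ND cultures, against 72.8, 72.6 and 77.0% in NR cultures. For PSMA4 the gene NO01G00750 supplied 54.9, 50.4 and 50.4% in ND cultures, against 69.4, 58.4 and 58.9% in NR cultures, so the 2 PSMA4 genes were nearly level in TPM in ND. PSMB3 went the other way: PBC1 supplied 62.6, 64.4 and 68.2% in ND cultures and 50.4, 56.3 and 56.4% in NR cultures. The pairs PSMA2, PSMB3, PSMB6 and PSME2 include genes with reads shared between gene models, so their split is uncertain. PSME2 shares of TPM overlapped (61.3, 55.4 and 51.7% in ND, against 61.2, 63.2 and 69.1% in NR), although its ratios of normalised CPM did not.

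Genes outside the entry include a few that other annotation columns name as proteasome subunits. The models NO11G02560 and NO11G02570, with consecutive IDs, are named PBD2, proteasome subunit beta type-2, while their KEGG symbol is that of the signal peptidase SEC11. NO11G02560 had 102, 92.8 and 93.6 normalised CPM in ND cultures, against 53.4, 48.1 and 63.8 in NR cultures, a change of 0.80 ± 0.09 (edgeR adjusted p = 1.1e-07). NO11G02570 had 20.5, 19.7 and 20.8 normalised CPM in ND cultures, against 36.9, 23.7 and 36.3 in NR cultures, a change of -0.67 ± 0.15 (edgeR adjusted p = 0.000445) that did not pass the test on the FPKM scale (-0.25). Groups did not overlap for either, both shared reads, and their sum rose by 0.41 (SE 0.09, edgeR adjusted p = 0.000352). Their levels were 71.8 ± 3.41 TPM in ND and 31.99 ± 4.70 TPM in NR, and 125 ± 2.98 TPM in ND and 147 ± 33.7 TPM in NR (SD, n = 3 each), above the 29.2 TPM in ND and 7.73 TPM in NR of pcb-4, the beta4 gene of the entry. The fumarase gene fumA (NO02G04170) carries the orthologous-group label of RPT5, the ATPase without a gene among the members. It had 158, 168 and 158 normalised CPM in ND cultures, against 218, 210.4 and 232 in NR cultures, with no overlap, a change of -0.45 ± 0.06 (edgeR adjusted p = 6.58e-07) that did not pass the test on the FPKM scale (-0.13), and its reads were shared with other models.

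Genes that work with the proteasome were matched by annotation as lists. The counts of each list stand beside 35.7% higher and 35.5% lower of all genes tested, or 54.4% and 23.0% with library totals alone. The 2 assembly chaperones PSMG3 and PSMG4, which help to build the alpha ring, had a median log2 fold change of 0.47, with 1 higher and 0 lower (on library totals, median 0.78 with 2 higher and 0 lower). PSMG4 (NO02G03540) had 14.6, 16.96 and 18.6 normalised CPM in ND cultures, against 11.1, 7.15 and 14.7 in NR cultures, overlapping in part, and rose by 0.62 ± 0.20 (edgeR adjusted p = 0.011). The call was lost without ND culture 3 (0.52) or NR culture 2 (0.39). PSMG3 (NO24G00850) had 23.4, 21.1 and 19.3 normalised CPM in ND cultures, against 19.2, 15.7 and 15.8 in NR cultures without overlap (0.32 ± 0.15, edgeR adjusted p = 0.0582), and was called higher with library totals alone (0.64), upper-quartile factors (0.43), on the FPKM scale (0.60), with a replicate block (0.33), and without ND culture 3 (0.39) or NR culture 1 (0.42). ECM29, which tethers the 19S particle to the core in yeast, was annotated in 3 models with consecutive IDs. The 3 models had 0 higher and 1 lower and a median of -0.23 (on library totals, 0.09 with 1 higher and 0 lower). Of these NO17G00840 had 13.8, 17.5 and 15.03 normalised CPM in ND cultures, against 21.7, 18.7 and 24.7 in NR cultures without overlap (-0.49 ± 0.15, edgeR adjusted p = 0.00783), a call that was lost with library totals alone (-0.17) and on the FPKM scale. NO17G00830 had 19.3, 22.2 and 20.8 normalised CPM in ND cultures, against 15.02, 17.3 and 18.9 in NR cultures without overlap (0.29 ± 0.14, not past the test), but was called higher with library totals alone (0.61), upper-quartile factors (0.40) and on the FPKM scale. The sum of the 3 models did not pass the test (-0.15 ± 0.09, edgeR adjusted p = 0.147).

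Ubiquitin carriers and the enzymes around the particle were mixed. Of 7 genes of the shuttle factors RAD23, DSK2 and DDI1, which carry ubiquitinated proteins to the proteasome, 1 was higher and 0 lower, 14.3% called against 71.2% of all genes, with a median of -0.10. On library totals 4 of the 7 were higher and 0 lower, with a median of 0.22. The RAD23 gene NO12G01520, so named by its KEGG symbol alone, had 55.3, 56.7 and 59.2 normalised CPM in ND cultures, against 22.2, 20.1 and 28.6 in NR cultures, without overlap, and rose by 1.28 ± 0.11 (edgeR adjusted p = 3.27e-09). The other RAD23 gene, rhp23 (NO12G01500), had means of 87.7 normalised CPM in ND and 94.1 in NR, with overlap. Its change of -0.10 ± 0.07 did not pass the test (edgeR adjusted p = 0.225), and the value was 0.22 with library totals alone. DSK2B (NO14G02920) had 165, 180.3 and 162 normalised CPM in ND cultures, against 154, 173 and 145 in NR cultures, with overlap (0.10 ± 0.07, not past the test), but was called higher with library totals alone (0.42), upper-quartile factors (0.21), on the FPKM scale (0.42) and without NR culture 2 (0.18). The segregase CDC48 with its cofactors UFD1 and NPL4, which pulls ubiquitinated proteins out of complexes and membranes, had 3 higher and 5 lower of 8 genes, with a median of -0.33 (on library totals, -0.02 with 3 higher and 3 lower). The CDC48A gene NO08G00420, with means of 565 normalised CPM in ND and 477 in NR, changed by 0.25 ± 0.06 (edgeR adjusted p = 0.000555). The CDC48A gene NO23G01800 changed by -0.31 ± 0.06 (edgeR adjusted p = 5.26e-05), against 0.01 with library totals alone. The gene cdc-48.1 (NO19G01970) had 135, 153 and 144 normalised CPM in ND cultures, against 91.1, 84.2 and 74.9 in NR cultures (0.79 ± 0.08, edgeR adjusted p = 1.1e-08). UFD1 (NO21G00430) had 42.7, 45.7 and 51.6 normalised CPM in ND cultures, against 82.98, 83.9 and 84.6 in NR cultures (-0.84 ± 0.08, edgeR adjusted p = 2.21e-08). Neither overlapped.

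The deubiquitinases that sit on the 19S base moved apart. UBP6 (USP14, NO11G00930), which trims ubiquitin chains on bound substrates, had 30.2, 37.2 and 39.4 normalised CPM in ND cultures, against 69.7, 63.8 and 67.4 in NR cultures, a change of -0.90 ± 0.10 (edgeR adjusted p = 6.92e-08). UCH2 (UCHL5, NO15G00200), which docks on RPN13 in animals, had 59.2, 54.5 and 64.01 normalised CPM in ND cultures, against 36.4, 42.4 and 39.7 in NR cultures, a change of 0.59 ± 0.10 (edgeR adjusted p = 1.42e-05). Neither gene's groups overlapped. Of 6 ubiquitin genes, 2 were higher and 2 lower, 66.7% called against 71.2% of all genes, with a median of -0.03. On library totals 3 of the 6 were higher and 0 lower, with a median of 0.29. Polyubiquitin (ubq-1, NO07G03480) had 1081, 1106 and 1119 normalised CPM in ND cultures, against 1496, 1527 and 1366 in NR cultures, without overlap (-0.41 ± 0.05, edgeR adjusted p = 1.42e-07), but -0.09 with library totals alone, which did not pass the test. A ubiquitin fused to ribosomal protein S27a (NO06G02130) had 114, 113 and 113 normalised CPM in ND cultures, against 78.3, 83.3 and 89.05 in NR cultures, without overlap (0.44 ± 0.07, edgeR adjusted p = 1.05e-05).

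The COP9 signalosome, a relative of the lid that removes the NEDD8 tag from cullin ubiquitin ligases, had 5 higher and 3 lower of 9 genes, with a median of 0.64, beside -0.30 for the lid and 0.02 for all genes tested. With library totals alone these medians were 0.95, 0.02 and 0.34, and 6 COP9 genes were higher and 1 lower. CSN1 (NO05G02670) had 129, 124 and 144 normalised CPM in ND cultures, against 269.6, 277 and 263 in NR cultures, a change of -1.02 ± 0.06 (edgeR adjusted p = 5.39e-12). COPS3 (NO05G01010) had 96.6, 105 and 103 normalised CPM in ND cultures, against 55.9, 56.1 and 63.2 in NR cultures, a change of 0.80 ± 0.08 (edgeR adjusted p = 1.3e-08). Neither overlapped between conditions, and the 2 genes moved in opposite directions. The Clp, Lon and FtsH proteases, which degrade proteins inside plastids and mitochondria without ubiquitin, had 5 higher and 8 lower of 14 genes, with a median of -0.33. On library totals 6 of the 14 were higher and 3 lower, with a median of -0.01. The gene clpP2 (NO20G01520) had 380.3, 359.7 and 368 normalised CPM in ND cultures, against 522, 496 and 542 in NR cultures (-0.49 ± 0.05, edgeR adjusted p = 1.74e-08). The gene ftsH3 (NO02G03120) had 1882, 1878 and 1885 normalised CPM in ND cultures, against 2768, 2635 and 2380.4 in NR cultures (-0.46 ± 0.05, edgeR adjusted p = 3.95e-08). Neither overlapped. Of the genes named in these lists, PSMG3, the ECM29 models NO17G00830 and NO17G00840, the CDC48A gene NO23G01800, UCH2, CSN1, COPS3 and clpP2 had counts that were not whole, so their reads were shared with other models.

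**Figure D5:**
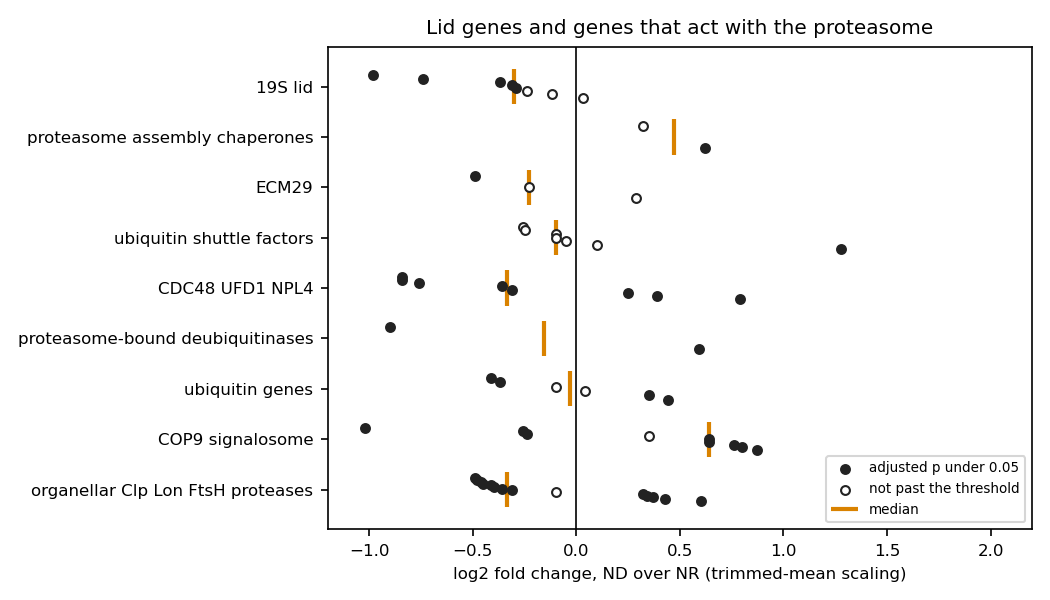
Log2 fold change, ND over NR with trimmed-mean scaling, of the lid genes and of 8 lists of genes that act with or beside the proteasome; each circle is a gene, filled where the edgeR adjusted p is under 0.05, and the upright bar is the list's median. The median was 0.64 for the COP9 signalosome and -0.30 for the lid. The RAD23 gene NO12G01520 at 1.28 stands apart on the right, while the RAD23 gene rhp23 lay at -0.10.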

How the data were processed

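Per the labels' protocols, Trizol was used to extract total RNA and the libraries were made by standard Illumina methods. The tools listed in the submitters' processing notes are Trim Galore, STAR, Picard, StringTie, featureCounts and edgeR, without versions or roles. The genome build is not given in the sources used here. Per the file headers, the authors' tables hold for each gene and library an expected count (an estimated, unnormalised count), TPM, FPKM and a transcript length. The authors' deposited comparison of ND with NR covers 2057 genes with their log2 fold change, FDR and p-value, and 4 of these are proteasome genes. The smallest absolute log2 fold change in it is 1.0001, so genes with a change under 2 times are absent from it. RPN5 is among the 4, at -1.001 there, against -0.98 in the edgeR fit used here. None of the gene IDs matched the reference table of 160 genes, and coordinates are not reported.

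After rounding, the expected counts were fitted with edgeR (version 4.0.16, R 4.3.3) for ND against NR over all 6 libraries, with filterByExpr, trimmed-mean factors, the quasi-likelihood F test, and Benjamini-Hochberg adjustment over all 9329 genes at 0.05. An SE is the size of the log2 fold change divided by the root of F. A count was called whole within 0.005, and 11 proteasome genes had counts that were not whole. Subunits were grouped by KEGG symbol, otherwise by Swiss-Prot name. Values of all libraries are printed for the largest and smallest change of each group, every fall, every change past 2 times and every subunit with several models; of each related list the 2 genes with the smallest p-values are named, and other genes were added. The members, lists and tests were chosen with earlier results of these data known. Alternatives were other scalings (RLE, upper-quartile, library totals alone), a block for replicate number, DESeq2 1.42.0, limma 3.58.1 on log2(FPKM + 1) and log2(FPKM + 0.1), no filter, 10 CPM in 3 libraries, 0.01, a test against 1.5 times, whole counts only and each library left out. The edgeR and DESeq2 fits, but not limma, were tested on simulated counts. Few genes were changed there, evenly up and down, so the simulation cannot decide between the scalings.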

Additional observations from a re-analysis of the deposited data

How the results depend on the processing

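The split of calls moved with the scaling. With trimmed-mean scaling 11 of 51 proteasome genes were higher and 21 lower; with library totals alone there were 22 and 12, with limma on either FPKM transform 20 and 9, and in the test against a change of 1.5 times 3 and 3. The median log2 fold change of -0.09 turned to 0.23 with library totals alone, 0.21 on either FPKM transform and 0.02 with upper-quartile factors, beside medians of all genes of 0.34, 0.34 or 0.36, and 0.13. It was -0.15 with whole counts only. It was also -0.15 with models of like annotation and consecutive IDs summed, an alternative chosen after seeing the data. Leaving out each library gave 10 to 11 higher, 19 to 22 lower and a median of -0.15 to -0.10; 27 of the 32 called genes kept their call without each library and 0 changed sign. The other settings gave 9 to 12 higher and 17 to 21 lower.

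Deviations of same-numbered ND and NR libraries correlated at 0.019, 0.036 and 0.089, and those of unlike-numbered libraries at -0.064 to 0.026. The deviations are from means of only 3 libraries a group, so these values cannot decide whether replicate numbers pair the cultures. With a replicate block 11 genes were higher and 21 lower, and all 51 proteasome genes stayed on their side of the threshold.

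These genes were under 0 with trimmed-mean scaling and above it with library totals alone, limma on log2(FPKM + 1) and limma on log2(FPKM + 0.1), in that order: NO01G00750 (0.26, 0.32, 0.32), NO02G02900 (0.02, 0.02, 0.02), NO05G01210 (0.08, 0.09, 0.10), NO06G00810 (0.29, 0.33, 0.33), NO06G02900 (0.14, 0.16, 0.17), NO07G03800 (0.03, 0.05, 0.05), NO09G00780 (0.01, 0.02, 0.02), NO11G01440 (0.20, 0.20, 0.21), NO11G03130 (0.31, 0.21, 0.21), NO12G00630 (0.11, 0.16, 0.16), NO15G00610 (0.28, 0.26, 0.27), NO18G01720 (0.23, 0.23, 0.23), NO21G01510 (0.28, 0.32, 0.34), NO24G00350 (0.00, 0.01, 0.02), NO24G02020 (0.30, 0.29, 0.32) and NO29G01510 (0.02, 0.05, 0.05). With upper-quartile factors NO01G00750 (0.05), NO06G00810 (0.08), NO11G03130 (0.10), NO15G00610 (0.07), NO18G01720 (0.02), NO21G01510 (0.07) and NO24G02020 (0.09) were above 0. Of all these, NO02G02900, NO07G03800, NO09G00780, NO24G00350 and NO29G01510 had been called. Without 1 library the sign turned only in genes that were not called, with ranges of -0.16 to 0.05 for NO01G00750, -0.04 to 0.09 for NO03G00430, -0.08 to 0.05 for NO06G00810, -0.05 to 0.05 for NO11G03130, -0.10 to 0.21 for NO13G00370, -0.04 to 0.35 for NO13G00390, -0.06 to 0.05 for NO16G00520, -0.16 to 0.02 for NO18G01720, -0.20 to 0.18 for NO21G01510, -0.13 to 0.05 for NO24G02020 and -0.01 to 0.12 for NO24G02110. Going from trimmed-mean scaling to library totals alone takes out the scaling factors, which moves the value of all 51 proteasome genes upward. The median of all genes moves from 0.02 to 0.34 with it. A cause of the sign turns beyond the scaling was not tested. The depth limits the second PSMA1 gene and PSMB2, with counts as low as 9.00 in a library.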
